A study of Mus musculus with 7 samples.

Results

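The genes Gata4, Gata6, Sox17, Sox7, Pdgfra, Fgfr1, Fgfr2 and Hnf4a are factors and receptors of the primitive endoderm, and their H3K4me1 was described here in mouse zygotes. The 8 genes were taken from a list of names, out of 21887 protein-coding genes on chromosomes 1 to 19, X and Y, and all 8 were found by symbol. For each gene, fragments were counted from 2.5 kb before the gene to 2.5 kb after it, called the gene window below, and in bins of 10 kb over 100 kb on either side of that window.

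The study profiled single zygotes with CUT&Tag, in which an antibody brings the transposase Tn5 to a histone mark so that sequenced fragments lie at marked chromatin, and with the transcriptome of the same cell. The values below come from the 2 H3K4me1 samples, which share 1 deposited table, and the other 5 of the 7 samples (H3K27me3 and RNA) were not used here. The females received 5 IU of pregnant mare serum gonadotropin and, after 46 to 48 h, 5 IU of human chorionic gonadotropin, and the collection of zygotes is given as 23 post-hCG, with no unit. The labels list no treatment, state no strain or age for the H3K4me1 samples, and say that each batch came from 1 mouse.

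The primitive endoderm is the layer of the blastocyst that lines the cavity side of the inner cell mass and gives rise to the extraembryonic endoderm of the yolk sac. Epiblast precursors secrete Fgf4, which acts through the receptors Fgfr1 and Fgfr2 and the MAP kinase cascade to sustain Gata6 and restrain Nanog. Sox17, Gata4 and Sox7 come on one after another in the cells that take this fate, Pdgfra marks them at the surface, and Hnf4a acts later, in the visceral endoderm. H3K4me1 is a mark of enhancers and of the neighbourhood of promoters, and the zygote stands several divisions before any of these lineages exists.

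The table held 1424363 fragments of 16 zygote libraries, and 14 of them reached 5000 fragments, which together had 1404305 fragments on the chromosomes named above. The shallowest of the 14 had 7106 fragments, the median was 96240 and the deepest had 197312. Library names carry a 4 (3 of the 14, 252571 fragments) or a 5 (11 of the 14, 1151734 fragments), and the labels do not say whether these are the batches. The 14 libraries were therefore treated as 1 pooled sample without replicates, with no test between samples. A level is the number of fragments per bp over the autosomal mean, which was 5.62 fragments per 10 kb, and each interval is an exact 95% Poisson interval that covers counting error only. As markers of the labelled cell, 12 oocyte and zygote genes had a median level of 1.80, with 6 intervals above 1 and 0 below, and 12 genes of the surrounding cumulus and granulosa cells had 0.931, with 4 above and 2 below. Over all autosomal protein-coding genes the median level was 1.21, with 29.5% of intervals above 1 and 7.16% below, so that the 4 cumulus genes above 1 are near that share. A chromatin mark does not identify the cell by itself.

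Only Sox7 and Hnf4a had H3K4me1 above the autosomal mean beyond counting error in the pool of 14 libraries. Their intervals lay above 1, the intervals of the other 6 genes held 1, and none lay below. Without library 5-6 the interval of Sox7 held 1 as well, and without library 5-7 that of Gata6 lay below 1. These 2 of 8 stand beside 29.5% of 20665 autosomal protein-coding genes with an interval above 1, and 34% of the 12944 whose length lies between those of the shortest and longest of the 8 genes. Intervals below 1 were found for 7.16% of all and 6.73% of those of like length. The median level of the 8 genes was 1.19, against 1.21 over all autosomal protein-coding genes and 1.29 over those of like length. Summed over their windows, the 8 genes had 302 fragments and a level of 1.24 (1.10 to 1.39), against 1.18 over all autosomal protein-coding genes and 1.32 over those of like length. Their count and median were thus near those of coding genes in general.

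In order of level, Sox7 was followed by Hnf4a, Pdgfra, Fgfr1, Gata4, Fgfr2, Sox17 and Gata6. No gene differed from the next in this order beyond counting error, since the interval of each of the 7 ratios of neighbours held 1. Without library 5-10, Hnf4a over Pdgfra was 1.57 (1.03 to 2.45). Sox7 over Gata6, the ends of the order, was 3.40 (1.53 to 7.60) in the pool, 2.38 (0.885 to 6.15) without library 5-6 and 5.55 (2.17 to 15.3) without 5-7. Among related genes the pooled ratio was 1.75 (0.953 to 3.43) for Gata4 over Gata6, 0.349 (0.0991 to 1.01) for Sox17 over Sox7 and 1.24 (0.822 to 1.87) for Fgfr1 over Fgfr2, each with an interval that held 1. For 2 of these pairs this rested on single libraries. Gata4 over Gata6 was 2.70 (1.26 to 6.63) without library 5-7 and 2.00 (1.05 to 4.13) without 5-1. Sox17 over Sox7 was 0.209 (0.0388 to 0.740) without library 5-8, 0.279 (0.0674 to 0.876) without 4-4 and 0.299 (0.0716 to 0.952) without 5-7.

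**Figure D1:**
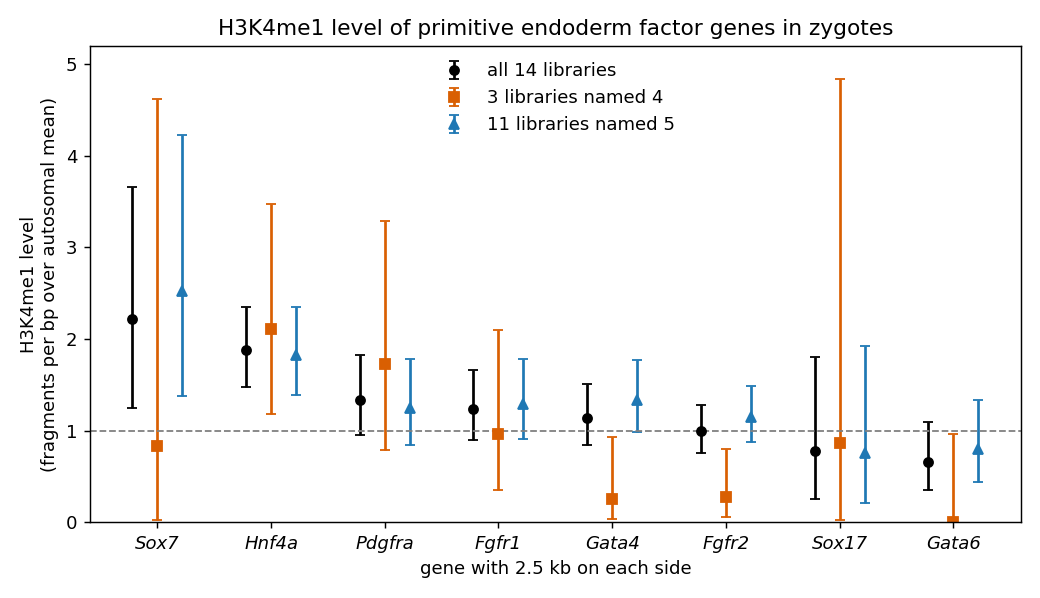
H3K4me1 level of the 8 genes, each with 2.5 kb on either side, in the pool of 14 libraries (circles), in the 3 libraries named 4 (squares) and in the 11 libraries named 5 (triangles). Bars are exact 95% Poisson intervals, and the dashed line is the autosomal mean. Pooled levels run from 2.22 at Sox7 to 0.653 at Gata6, and at Gata4 and Fgfr2 the squares lie below the triangles with no overlap of the bars.

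Of the Fgf receptor genes, Fgfr1 lies on chromosome 8 (25518759 to 25575718, build mm10, as all positions below). It encodes the receptor that most cells of the inner cell mass carry. Its window held 43 fragments from 12 libraries, from 0 to 8 per library with a median of 3, and its level was 1.24 (0.894 to 1.66). Its flanks had almost the same level, 1.24 (1.04 to 1.46), and 1 of their 20 bins had an interval above 1. Within the gene, 1 of 7 steps of up to 10 kb had an interval above 1, in the middle of the window (25546259 to 25556258), where 13 fragments in 9 libraries gave 2.31 (1.23 to 3.96). Of 10 kb bins beside autosomal protein-coding genes of like length, 15.3% had an interval above 1, and of all autosomal 10 kb bins 7.91%. A count of 1 of 7 is near the former share. These shares also stand beside the 10 kb steps of the genes below, since steps within genes in general were not counted. The lncRNA genes Gm31288 and Gm16159 overlap the Fgfr1 window, and fragments cannot be divided between overlapping genes.

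Fgfr2, the receptor that is raised in primitive endoderm precursors, lies on chromosome 7 (130162451 to 130266808) and is the longest of the 8 genes. Its window held 61 fragments from 12 libraries, from 0 to 12 per library with a median of 4.5, and its level of 0.992 (0.759 to 1.28) was that of the autosomal mean. Its flanks were higher, with 1.41 (1.20 to 1.65), and the gene stood at 0.702 times its flanks (0.513 to 0.948). Most of the gene lay near or under the mean, and 1 of its 11 steps had an interval above 1 (130239951 to 130249950), where 12 fragments gave 2.14 (1.10 to 3.73). This 1 of 11 stands beside 15.3% of 10 kb bins near coding genes of like length. The next step, with 11 fragments, had 1.96 (0.977 to 3.50). Both steps lie in the part of the gene near its start, which RefSeq places at 130266808 on the minus strand. No fragment was placed within 1 kb or within 2.5 kb of that start, for which the exact interval in the wider window ends at 1.31 and the limit of 3 fragments is 1.07.

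Pdgfra, on chromosome 5 (75151322 to 75198206), encodes the receptor for platelet-derived growth factor A. Its window held 39 fragments from 13 libraries, from 0 to 6 per library with a median of 3, and its level was 1.34 (0.951 to 1.83). The only library without a fragment was 5-11, the shallowest. Of its 6 steps of up to 10 kb, 2 had an interval above 1, each with 12 fragments and a level of 2.14 (1.10 to 3.73). They ran from 75158822 to 75168821 with 9 libraries and from 75178822 to 75188821 with 7 libraries. The steps between and beside them held the rest, with 1 to 5 fragments each and levels from 0.712 to 0.944. Of 10 kb bins beside coding genes of like length, 15.3% had an interval above 1. At the start of the gene (75152251, plus strand), 0 fragments were found within 1 kb and 2 within 2.5 kb, a level of 0.712 (0.0862 to 2.57). The flanks of Pdgfra were unequal, with 0.783 (0.569 to 1.05) on the side of low coordinates and 1.41 (1.11 to 1.75) on the other.

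Gata6, the zinc finger factor whose loss leaves the embryo without primitive endoderm, lies on chromosome 18 (11052510 to 11085636) and had the lowest level of the 8 genes, 0.653 (0.357 to 1.10). Its window held 14 fragments from 7 libraries, against 21.4 fragments and 10.1 libraries expected at the autosomal mean. Of the 14 fragments, 6 came from library 5-7, and without that library the level was 0.420 (0.181 to 0.828), with an interval below 1. No step within the gene had an interval above 1, and the 4 steps had levels of 0.534, 0.890, 0.534 and 0.657. The lncRNA gene Gata6os overlaps the window. The flanks as a whole were at 1.03 (0.853 to 1.24), with 1.30 (1.02 to 1.63) on the low side, where 2 bins within the lncRNA gene Gm35814 each reached 2.31 (1.23 to 3.96), and 0.765 (0.554 to 1.03) on the high side.

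Gata4, a related zinc finger factor that follows Gata6 and activates endoderm genes, lies on chromosome 14 (63198914 to 63271712). Its window held 50 fragments from 12 libraries, from 0 to 12 per library with a median of 3, and its level was 1.14 (0.849 to 1.51). None of its 8 steps of up to 10 kb had an interval above or below 1, and their levels ran from 0.712 to 1.83. The sequence beside the gene was higher than the gene itself. The 20 flank bins together had a level of 1.74 (1.5 to 2.00), the gene stood at 0.659 times this value (0.473 to 0.903), and the higher side was that towards Sox7, with 2.19 (1.82 to 2.61), against 1.28 (1.00 to 1.61) on the other side.

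On that side of Gata4, picked as the higher one, 5 of 10 bins had an interval above 1. Of 10 kb bins beside autosomal protein-coding genes of like length, 15.3% had such an interval. From 63294213 to 63324212, a stretch that overlaps no protein-coding or lncRNA gene of the RefSeq table, 3 neighbouring bins had levels of 3.03 (1.76 to 4.84), 3.03 (1.76 to 4.84) and 2.14 (1.10 to 3.73). The highest of all 160 flank bins lay farther out, from 63364213 to 63374212, where 20 fragments in 8 libraries gave 3.56 (2.17 to 5.50). It overlaps the lncRNA genes Gm36165 and Gm46458 and Blk, which encodes a tyrosine kinase of B cells. It was the 1 flank bin of 160 with 20 fragments, and the share of such bins beside other genes was not computed.

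Sox17 and Sox7 encode related HMG box factors of early endoderm and are short genes, so that few fragments are expected at either. Sox17, on chromosome 1 (4490928 to 4497426), had 5 fragments from 4 libraries against 6.46 expected, a level of 0.774 (0.251 to 1.81), and 0.492 (0.101 to 1.44) without library 5-8. Library 5-8 gave 2 of them and libraries 4-4, 5-6 and 5-7 gave 1 each. All 5 fragments lay between 4488428 and 4494427, on the low side of the window, and the bin just beyond its high end (4499927 to 4509926) had 1 fragment and a level of 0.178 (0.00450 to 0.991). The megabase on either side of Sox17, together with the gene, had a level of 0.746 (0.696 to 0.798), the lowest such value of the 8 genes, the other 7 lying between 1.12 and 1.37.

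Sox7, on chromosome 14 (63943706 to 63950732), had the highest level of the 8 genes, 2.22 (1.24 to 3.66). Its 15 fragments, against 6.76 expected, came from 8 libraries. The level lay above that of 91.0% of autosomal protein-coding genes. Library 5-6 gave 6 of the 15 fragments and no other library gave more than 2, and without 5-6 the level was 1.51 (0.692 to 2.87), with an interval that held 1. Of 7 fixed steps of up to 2 kb, 1 had an interval above 1, from 63947206 to 63949205 inside the gene, where 6 fragments in 4 libraries gave 5.34 (1.96 to 11.6). The share of such steps over other genes was not computed. The densest 2 kb at any position, chosen for its count, ran from 63947566 to 63949565 and held 8 fragments. Sox7 lay in a stretch that was high as a whole, since its flanks had a level of 1.77 (1.53 to 2.03) and the gene did not differ from them beyond counting error, with a ratio of 1.25 (0.689 to 2.12). On the high side 6 of 10 bins had an interval above 1, beside 15.3% of bins near coding genes of like length. That side, picked as the higher one, had 2.19 (1.82 to 2.61) as a whole. The gene Rp1l1, a retinal gene, overlaps 3 of these 6 bins, with levels of 2.49, 3.20 and 2.49.

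Gata4 and Sox7 are neighbours on chromosome 14, 672 kb apart, with 6 protein-coding genes between them. The sequence between their windows had a level of 1.46 (1.34 to 1.59), while chromosome 14 as a whole had 0.886. This level is a mean over the whole stretch and includes the high bins on the facing side of Gata4. It was not even, since the 10 bins on the facing side of Sox7 ran from 0.534 to 2.85, with 1.35 (1.07 to 1.69) as a whole. With 1 Mb on either side, the level was 1.37 at Gata4 and 1.305 at Sox7, and likewise 1.37 at Hnf4a and 1.315 at Fgfr2. The stretches at Gata4 and Sox7 overlap, so their values share fragments.

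Hnf4a, a nuclear receptor that directs metabolic genes in visceral endoderm and liver, lies on chromosome 2 (163506811 to 163572907). Its window held 75 fragments from 13 libraries, from 0 to 15 per library with a median of 4, and its level was 1.88 (1.48 to 2.35). All libraries but the shallowest had fragments there, and 12 of 14 had a level above 1, though only 1.002 in library 5-10. The number of such libraries at other coding genes was not computed. The level lay above that of 82.8% of autosomal protein-coding genes, and its interval stayed above 1 whichever single library was left out, with levels from 1.69 to 1.98. The gene stood at 1.40 times its flanks (1.05 to 1.86), which had 1.34 (1.14 to 1.58). The highest flank bin touches the window on the low side, where R3hdml and the lncRNA gene Hnf4aos lie, with 2.85 (1.63 to 4.62). The bin that touches it on the high side had 2.14 (1.10 to 3.73). Farther out on the low side, 2 bins had 2.49 (1.36 to 4.18) and 2.14 (1.10 to 3.73), the latter from 3 libraries. These are the 4 of 20 flank bins with an interval above 1. Another bin on the low side (163454311 to 163464310) had an interval below 1, with 0.178 (0.0045 to 0.991). Hnf4aos also overlaps the gene window.

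Inside Hnf4a the fragments fell into 2 parts. The first step of 10 kb begins at 163504311 and holds the first start, and 13 fragments gave it 2.31 (1.23 to 3.96). The next step fell to 1 fragment and 0.178 (0.00450 to 0.991), and the one after it had 4 fragments and 0.712 (0.194 to 1.82). From 163534311 on, the levels of 4 steps were 2.31, 1.96, 3.38 and 1.78, the highest of them from 163554311 to 163564310 where 19 fragments in 11 libraries gave an interval of 2.04 to 5.28. The last 1097 bp of the window held 4 fragments. RefSeq gives 2 starts of Hnf4a, at 163506857 and at 163547155 on the plus strand, which serve different promoters of the gene. Both had 9 fragments within 2.5 kb and a level of 3.20 (1.46 to 6.08), from 3 libraries at the first and 6 libraries at the second. Summed over 20063 starts of autosomal protein-coding genes, the level within 2.5 kb was 1.16 (1.15 to 1.17). This interval does not give the spread among starts, and the share of them with an interval above 1 was not computed. Within 1 kb the first start had 3 fragments and 2.67 (0.550 to 7.80), and the second had 5 fragments and 4.45 (1.44 to 10.4).

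The 250 bases before each of these starts are shown with those before the start of Fgfr2, where no fragment was found. Within 2.5 kb these were the highest and lowest of the 3 genes with a matched start. The third, Pdgfra, also had 0 fragments within 1 kb, and its interval within 2.5 kb (0.0862 to 2.57) overlaps those of both. Sequences are from RefSeq, assembly GRCm38.p6, 5′ to 3′ in the direction of the gene, and starts were matched for 3 of the 8 genes, Hnf4a, Pdgfra and Fgfr2. Capitals mark matches, on either strand, to forms bound by GATA factors. The GATA forms searched were AGATAA (in 9.99% of such sequences), TGATAA (in 7.94%), AGATAG (in 7.71%) and TGATAG (in 6.35%), and no match shown overlaps another. Forms bound by SOX factors were searched too, ACAAAG (in 16.5%) and ACAAT (in 27.7%), and are not in capitals.
Hnf4a, first start, chr2:163506607-163506856, plus strand: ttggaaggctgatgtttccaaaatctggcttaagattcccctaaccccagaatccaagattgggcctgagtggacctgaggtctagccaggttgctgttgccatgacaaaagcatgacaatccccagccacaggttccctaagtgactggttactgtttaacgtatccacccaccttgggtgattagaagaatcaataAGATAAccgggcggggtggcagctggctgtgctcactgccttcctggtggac
Hnf4a, second start, chr2:163546905-163547154, plus strand: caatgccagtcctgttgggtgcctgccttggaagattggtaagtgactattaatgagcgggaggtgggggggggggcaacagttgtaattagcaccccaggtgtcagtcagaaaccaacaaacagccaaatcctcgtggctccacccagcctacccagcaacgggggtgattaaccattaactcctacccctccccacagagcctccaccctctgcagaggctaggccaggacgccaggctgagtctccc
Fgfr2, chr7:130266809-130267058, minus strand: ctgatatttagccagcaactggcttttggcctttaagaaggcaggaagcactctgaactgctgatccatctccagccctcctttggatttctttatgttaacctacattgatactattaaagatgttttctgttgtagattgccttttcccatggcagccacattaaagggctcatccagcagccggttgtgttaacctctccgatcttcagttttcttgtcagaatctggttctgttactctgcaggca
The first Hnf4a sequence holds 1 GATA form, AGATAA, and 1 SOX form, ACAAT, and the other sequences shown hold 0 of either. These shares are of 32851 RefSeq sequences of the same length before a start, of which 26.5% hold at least 1 of the 4 GATA forms, so that a match is common. The GC content was 51.2% before the first Hnf4a start, 57.6% before the second and 44% before Fgfr2.

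**Figure D2:**
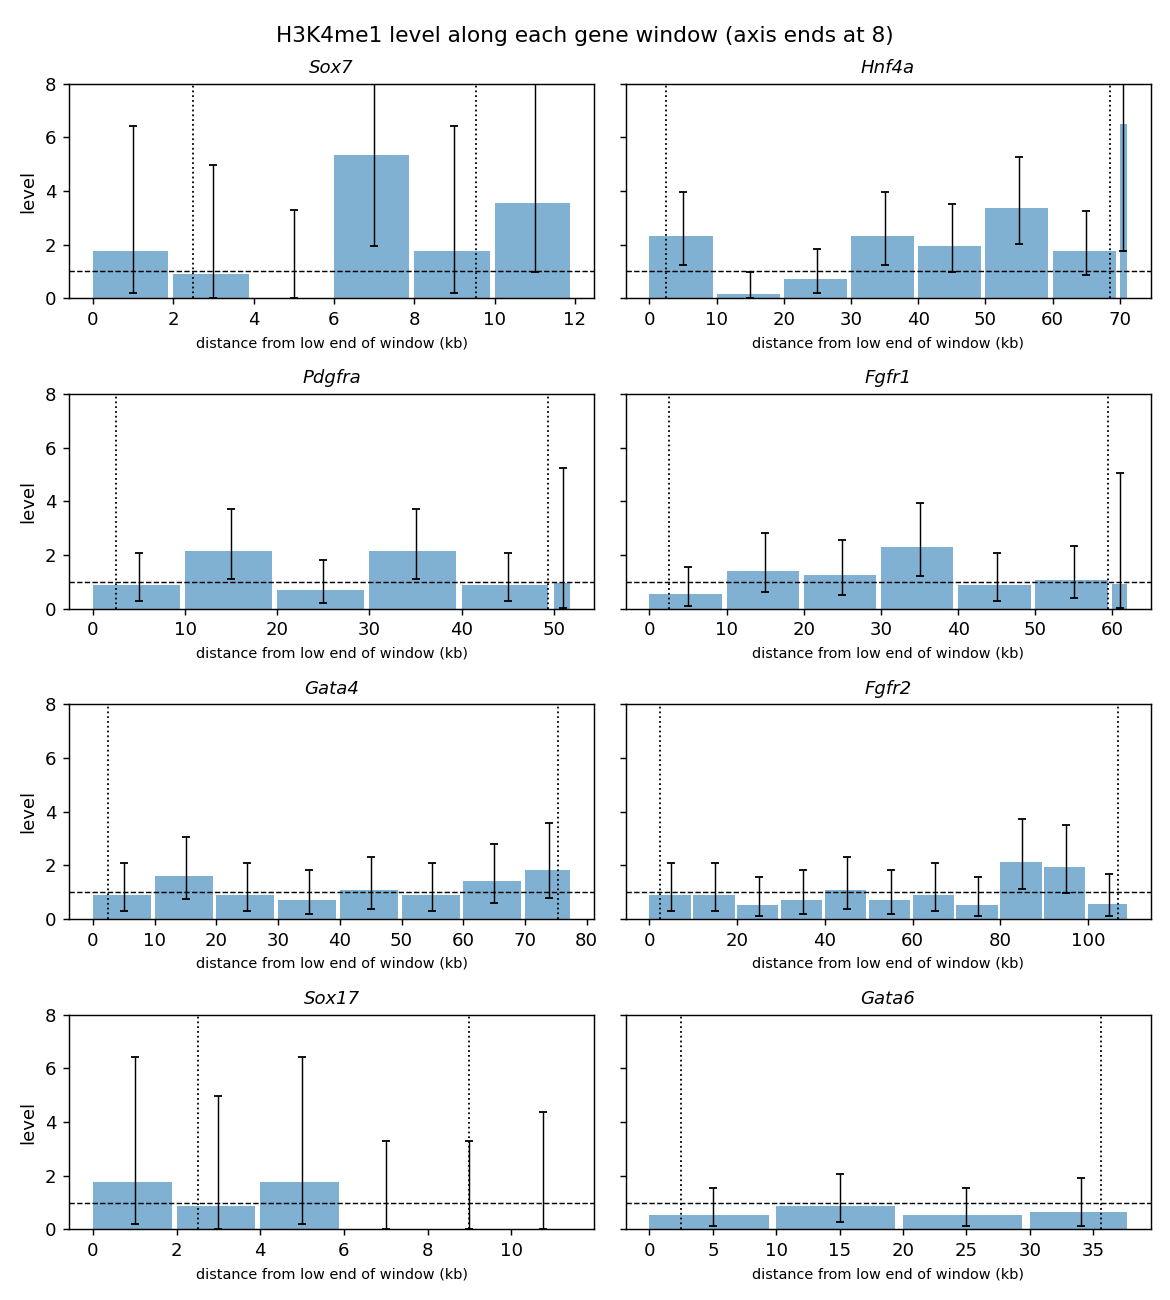
H3K4me1 level along the window of each gene, in steps of 10 kb, or of 2 kb for Sox7 and Sox17, against the distance from the low-coordinate end of the window in kb. Bars are levels with exact 95% Poisson intervals, dotted lines mark the ends of the gene and the dashed line is the autosomal mean. Hnf4a is high at its low end, drops to 0.178 in the second step and is high again from the fourth, while Gata6 stays below 1 in all 4 steps.

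The 8 genes were read in a few fragments per library. Summed over the 8 windows, 3 of 14 libraries had an interval above 1, library 5-2 with a level of 1.95 (1.36 to 2.69), 5-7 with 1.55 (1.12 to 2.09) and 5-6 with 1.53 (1.12 to 2.05), and none had one below. Library 5-11 had 0 fragments over all 8 windows, with 1.22 expected. Over all autosomal coding gene windows the 14 libraries ran from 1.09 to 1.19. There 5-7 and 5-6 had 1.19 each, which their intervals over the 8 windows hold, and 5-2 had 1.18, which its interval does not. The number of libraries with a fragment was close to that expected from depth at the gene's own level, 8 against 8.52 for Sox7, 13 against 13.1 for Hnf4a, 12 against 12.6 for Gata4 and 7 against 8.21 for Gata6. The expected number uses the gene's own fragments, so a close match does not show that they are spread evenly. At Sox7, 1 library gave 6 of 15 fragments, and at Gata6, 1 library gave 6 of 14.

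**Figure D3:**
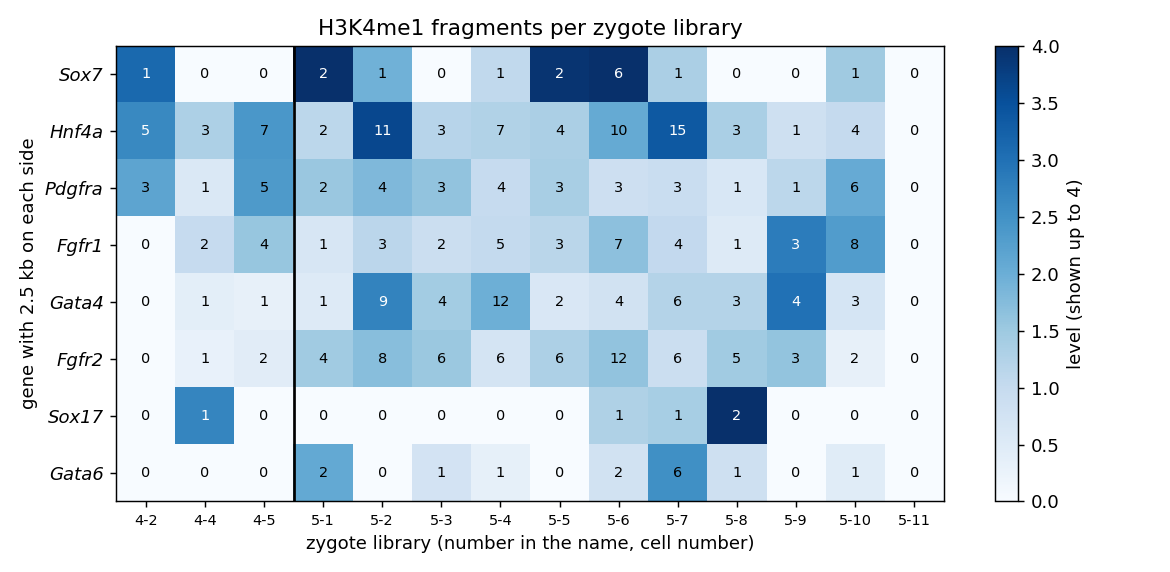
Number of H3K4me1 fragments in the window of each gene (rows) in each of the 14 zygote libraries (columns), with the level as colour, shown up to 4. The line separates libraries named 4 from those named 5. The 3 libraries named 4 have 0 fragments at Gata6, 2 at Gata4 and 3 at Fgfr2, and 15 at Hnf4a.

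Gata4 and Fgfr2 were lower in the libraries named 4 than in those named 5, and Hnf4a did not differ between the sets beyond counting error. At Gata4, libraries named 4 had 2 fragments and a level of 0.257 (0.0311 to 0.927), against 48 fragments and 1.34 (0.985 to 1.77) in libraries named 5. At Fgfr2, they had 3 fragments and 0.274 (0.0565 to 0.80), against 58 fragments and 1.15 (0.872 to 1.48) in libraries named 5. By library, those named 4 had 0, 1 and 1 fragments at Gata4 and 0, 1 and 2 at Fgfr2. The ratio of libraries named 4 over libraries named 5 was 0.192 (0.0226 to 0.733) at Gata4 and 0.239 (0.0478 to 0.732) at Fgfr2. With each library left out in turn the ratio ran from 0.142 to 0.262 at Gata4 and from 0.135 to 0.325 at Fgfr2, and its interval stayed below 1 each time. The interval came closest to 1 without library 4-2, with a high end of 0.999 at Gata4. Gata6 had 0 fragments in libraries named 4, for which the exact interval ends at 0.966 and the limit of 3 fragments is 0.785, against 14 fragments and 0.795 (0.435 to 1.33) in libraries named 5. The interval of the ratio at Gata6 ran from 0 to 1.39 and held 1. At Hnf4a, libraries named 4 had 15 fragments and 2.11 (1.18 to 3.47), against 60 fragments and 1.83 (1.39 to 2.35) in libraries named 5, a ratio of 1.15 (0.608 to 2.06). At Sox7, libraries named 4 had 1 fragment, with 1.205 expected at the autosomal mean, and a level of 0.830 (0.0210 to 4.62). Libraries named 5 had 14 fragments and 2.52 (1.38 to 4.23) there. The ratio at Sox7 was 0.329 (0.00779 to 2.16), so that the sets did not differ beyond counting error.

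An interval in libraries named 4 wholly below that in libraries named 5, as at Gata4 and Fgfr2, was found for 0.603% of autosomal protein-coding genes of like length. Few fragments are expected at short genes, and among the 1237 genes of 70 kb up to the length of Fgfr2 the share was 2.26%, with 31 genes the other way round. These long genes as a whole had levels of 1.23 in libraries named 4 and 1.25 in libraries named 5. In the flanks the intervals of the sets overlapped. The flanks of Gata4 had 1.55 (1.05 to 2.20) in libraries named 4, against 1.78 (1.51 to 2.07) in libraries named 5. Those of Fgfr2 had 1.40 (0.929 to 2.02) in libraries named 4, against 1.42 (1.19 to 1.68) in libraries named 5. Summed over the 8 genes, libraries named 4 had 0.852 (0.600 to 1.17), against 1.32 (1.17 to 1.49) in libraries named 5. The libraries of a set may share a mouse, a plate or a day, which cannot be told apart here.

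**Figure D4:**
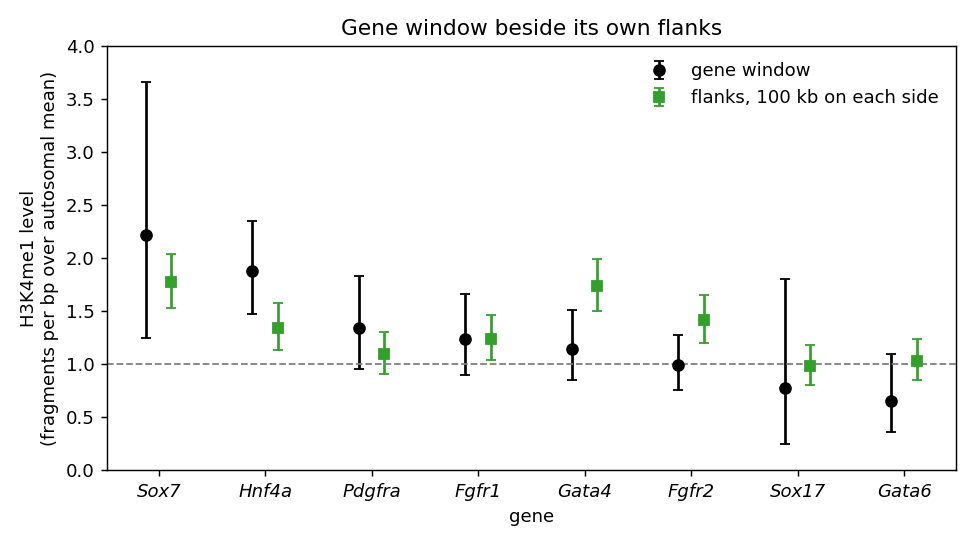
H3K4me1 level of each gene window (circles) beside that of its flanks, 100 kb on either side summed (squares), with exact 95% Poisson intervals, over 14 libraries. Hnf4a stands above its flanks, with 1.88 against 1.34, and Gata4 and Fgfr2 stand below theirs, with 1.14 against 1.74 and 0.992 against 1.41.

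Set against its own flanks, 1 gene of 8 was higher beyond counting error, Hnf4a, and 2 were lower, Gata4 and Fgfr2. Among 12873 autosomal protein-coding genes of like length, the ratio was above 1 by its interval for 11.2% and below 1 for 6.84%. The interval of each of the 3 ratios came to hold 1 when certain single libraries were left out. For Hnf4a it was 1.31 (0.961 to 1.78) without library 5-2 and 1.23 (0.894 to 1.68) without 5-7, and 1.08 (0.554 to 2.01) in libraries named 4 alone. For Gata4 it was 0.726 (0.511 to 1.01) without 5-6, and 0.752 (0.534 to 1.04) in libraries named 5 alone. For Fgfr2 it was 0.752 (0.547 to 1.02) without 4-4, 0.751 (0.538 to 1.04) without 5-4 and 0.744 (0.540 to 1.01) without 5-10, and 0.810 (0.584 to 1.11) in libraries named 5 alone.

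Of the 160 flank bins, 28 (17.5%) had an interval above 1 and 6 (3.75%) had one below. Over all 240290 autosomal bins of 10 kb, gaps in the assembly included, the shares were 7.91% above and 11.6% below. Over the flanks of the autosomal protein-coding genes of like length they were 15.3% above and 6.41% below, so that the share of high flank bins was near that beside coding genes in general. Sox7 held 8 of the 28 high bins, Gata4 and Fgfr2 held 5 each, Hnf4a held 4, Pdgfra and Gata6 held 2 each, and Fgfr1 and Sox17 held 1 each. Of the 6 low bins, 5 had 1 fragment, for which the interval ends at 0.991, and 1 beside Gata6 had 0. Their count moved between 1 and 6 when 1 library was left out.

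**Figure D5:**
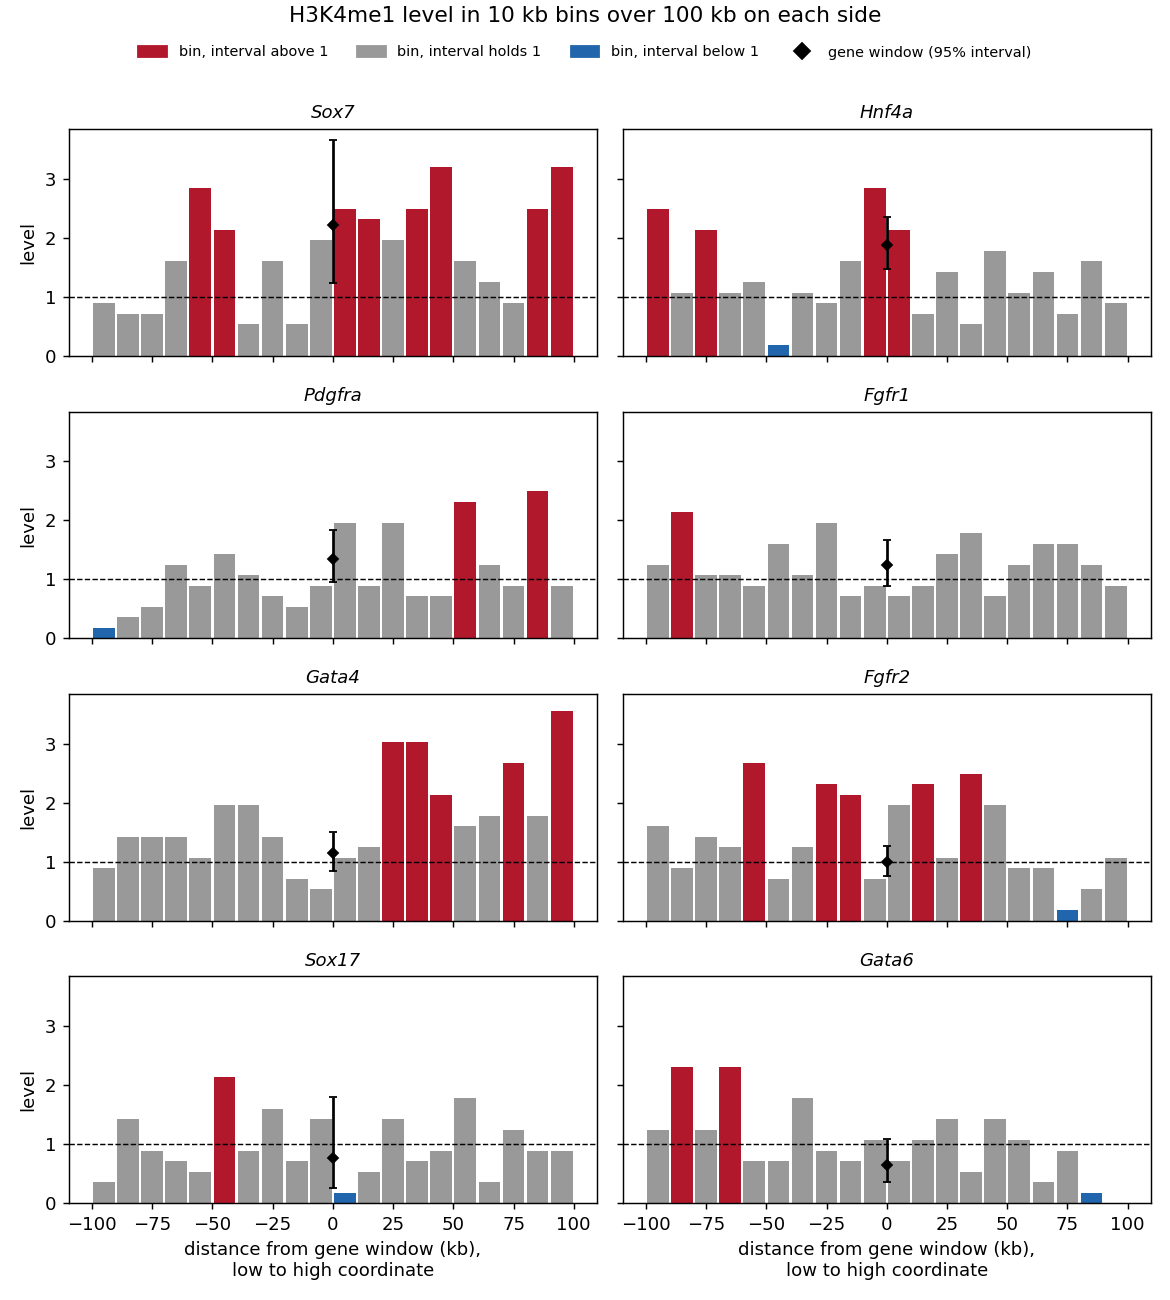
H3K4me1 level in 10 kb bins over 100 kb on each side of the 8 gene windows, against the distance from the window in kb from low to high coordinate, over 14 libraries. Red bins have an interval above 1 and blue bins one below 1, and the black diamond at 0 is the gene window with its 95% interval. High bins make up 5 of 10 on the high side of Gata4 and 6 of 10 on that of Sox7. Both sides were picked as high, and the share beside coding genes of like length was 15.3%.

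Fragment length did not set the 8 genes apart. Their 302 fragments had a median length of 322 bp, as had all autosomal fragments, and 13 of them, 4.30% (2.31% to 7.25%, exact Clopper-Pearson), were shorter than 120 bp, against 4.93% of all autosomal fragments. No fragment of the 8 windows repeated another of the same library, and 2 of the 302 shared both ends with a fragment of another library, against 0.405% of all fragments. At most 2 fragments of 1 library lay over the same base.

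The 8 genes, with a median of 1.19, had a lower median than lists of other endoderm and Fgf signalling genes. The summed level of the 8 genes was 1.24 (1.10 to 1.39). It was 1.39 (1.31 to 1.46) for the endoderm list and 1.40 (1.32 to 1.49) for the signalling list, with intervals that overlapped that of the 8 genes. These lists hold shorter genes, and an effect of gene length was not tested. Among 30 genes of primitive and extraembryonic endoderm the median level was 1.40, with 10 intervals above 1 and 0 below, beside 29.5% above and 7.16% below over all autosomal protein-coding genes, a share above 1 near that of the list. The highest were Apoa1, an apolipoprotein secreted by yolk sac, with 3.38 (1.80 to 5.78), the collagen chaperone gene Serpinh1 with 3.18 (2.02 to 4.77), Lefty1, a Nodal antagonist, with 2.97 (1.63 to 4.99), and Gata5, a further GATA factor of endoderm, with 2.77 (1.78 to 4.12). Among 31 genes that carry Fgf and Pdgf signals the median was 1.59, with 16 intervals above 1 and 2 below, beside the same 29.5% and 7.16%. Map2k2, a MAP kinase kinase, had 2.77 (1.95 to 3.82), the ligand genes Fgf3 and Fgf4 had 2.74 (1.53 to 4.52) and 2.61 (1.39 to 4.46), and the receptor gene Pdgfrb had 2.53 (1.95 to 3.24). The MAP kinase inhibitor gene Spred1, with 0.672 (0.435 to 0.992), and the ligand gene Pdgfc, with 0.663 (0.514 to 0.840), lay below 1.

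The factors of the other 2 lineages of the blastocyst had summed levels whose intervals overlapped that of the 8 genes, 1.10 to 1.39. The 14 pluripotency factor genes had a median of 1.36 and a summed level of 1.44 (1.31 to 1.59), with 3 intervals above 1, at Nanog, Esrrb and Tfcp2l1. The 14 trophectoderm factor genes had a median of 1.36 and a summed level of 1.40 (1.25 to 1.57), also with 3 above 1, at Tfap2c, Elf5 and Yap1, and neither list had an interval below 1. Their 3 of 14 above 1 stand beside 29.5% of all autosomal protein-coding genes. Of 10 paralogues of the 8 genes, 4 had an interval above 1, beside the same 29.5%, Gata5, Pdgfrb, Fgfr4 with 2.12 (1.38 to 3.14) and Gata1 with 1.91 (1.22 to 2.84), and Hnf4g, the paralogue of Hnf4a, had one below, with 0.533 (0.392 to 0.709).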

How the data were processed

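Per the labels, both H3K4me1 batches were placed in 1 deposited table of fragments, and the submitters' processing notes name the build mm10. Aligner, duplicate handling, filters and Tn5 shift were not given in the sources used here. The deposited count column held 1 in every line, so the count for a region is here its number of lines. The other deposited columns give a start and an end, read here as BED positions counted from 0, and a library name.

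Libraries that reached 5000 fragments on the numbered and sex chromosomes were pooled. A fragment was placed by its midpoint, gene positions came from RefSeq GRCm38.p6, and chromosome lengths were taken from first to last fragment. Intervals for levels are exact Poisson intervals, and those for ratios are exact conditional binomial intervals. Both cover counting error only, and not variation between zygotes, batches or mice. PCR reads lacking molecular identifiers need not be independent molecules. Of 1404305 kept fragments, 3 repeated both ends of another of the same library. Where 0 fragments were found, the limit is the level of 3 fragments. No edgeR or other count test was run, because the table is 1 sample. Counting was checked on simulated fragments. The genes and lists were chosen with earlier results of these data known. In the other lists, genes named are at most the 4 highest and 3 lowest of those whose interval excluded 1. Python 3.11.15, pandas 2.3.3 and SciPy 1.17.1 were used. Alternatives covered the window, library choice and weights, fragment placement and length, and the mean used; leaving libraries out of ratios (gene to flanks, gene to gene, libraries named 4 to named 5) was chosen after seeing the data.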

Additional observations from a re-analysis of the deposited data

How the results depend on the processing

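In libraries named 4 alone the summed level of the 8 genes was 0.852, their median was 0.849, 1 gene (Hnf4a) had an interval above 1 and 3 had one below, 12 flank bins were above 1 and 0 below, and the level of Sox7 was 0.830. In libraries named 5 alone, 3 flank bins were below 1. For neither set alone was the share of all coding genes or of all bins with such an interval computed. The shares from the 14 libraries do not apply to these counts, since a call depends on depth. Relative to the mean of the flanks, the summed level was 0.910, with 1 gene above and 2 below. Fragments under 120 bp numbered 13, too few for a level: the sum was 1.08, the median 0.821, 0 genes lay above 1 and Sox7 had 0 fragments. Bins of 5 kb gave 49 above 1 and 0 below, and bins of 20 kb gave 3 below, as an interval depends on the fragments per bin. Leaving out 1 library moved the summed level between 1.18 and 1.28, the median between 1.13 and 1.25, the genes above 1 between 1 and 2 and below 1 between 0 and 1, the flank bins above 1 between 25 and 36 and those below between 1 and 6. It moved Gata4 over Gata6 between 1.43 and 2.70, Sox17 over Sox7 between 0.209 and 0.465, Fgfr1 over Fgfr2 between 1.05 and 1.33 and Sox7 over Gata6 between 2.38 and 5.55. Windows of 1 kb, 5 kb or the gene body, all libraries or the deepest, any overlap, the own chromosome's mean fragments of 120 bp or more and both rules on repeated ends left 2 genes above 1. Weighting libraries equally gives no interval and so no count of genes. Depth limits Sox17 and Sox7 most, with 6.46 and 6.76 fragments expected. No paired analysis was possible because the table does not tie libraries to batches.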
